A study of Mus musculus with 13 samples.

Results

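The 9 monocyte and macrophage genes described here are Ctss, Lyz2, Mpeg1, Csf1r, Cd68, C1qa, C1qb, C1qc and Cd14, taken by symbol from a table of 33433 gene entries. RNA-seq was made from mesenchymal stromal cells (MSCs), the connective-tissue cells that support blood formation, sorted from marrow and compact bone of mice. The title of the study names macrophages as cells that MSCs act on in leukemic marrow, and the question here is how far monocyte and macrophage transcripts were present in the sorted cells of each group. The 13 libraries fall into 4 recovered, 6 pre-leukemic and 3 healthy ones, all from C57BL/6 mice. From the sample titles, the recovered group was taken to be the protocol's pre-leukemic mice that were treated with MSCs. The pre-leukemic group was taken as pre-leukemic mice without that treatment, and the healthy group as control mice. The sources used here name neither the leukemia model, the ages nor the surface markers of the sort. They do not say that the replicates of a group were different animals either, and p-values then reflect only the spread among these libraries, which may be technical. All levels are FPKM, fragments mapped to a gene relative to its transcript length and to the size of the library. The sources used here do not say how library size was scaled.

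Monocytes leave the bone marrow, circulate and become macrophages in tissues, which take up particles and dying cells and digest them in lysosomes. Their survival and maturation depend on CSF1, a cytokine that stromal cells secrete, and on its receptor, the product of Csf1r. The 9 genes cover 3 sides of this biology: digestion and killing in endosomes and lysosomes (Ctss, Lyz2, Mpeg1 and Cd68), surface receptors (Csf1r and Cd14), and C1q, the recognition molecule of the classical complement pathway (C1qa, C1qb and C1qc), which in mice is made largely by macrophages. Several are not exclusive to these cells: neutrophils also make lysozyme, and dendritic cells and B cells also make cathepsin S.

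Depth was read off the smallest steps in each library's FPKM values. A single read on 1 kb of transcript was worth 0.312 to 0.574 FPKM in recovered, 0.156 to 0.227 FPKM in pre-leukemic and 0.281 to 0.342 FPKM in healthy libraries, so low values were resolved best in the pre-leukemic group. Healthy 1 and healthy 3 differed by about the sampling noise, with a chi-square per gene of 1.25 over 210 well-covered genes, where the lowest of the other 23 pairs within groups reached 23.3. They were averaged and counted as 1 sample, which leaves the healthy group with n = 2. The share of immunoglobulin genes in the total FPKM was 54.9 to 80.5% in pre-leukemic libraries and at most 0.134% in recovered and healthy ones. Pre-leukemic 1 and 2, with 54.9 and 55.3%, stood apart from the remaining 4, which held 70.7 to 80.5%. Values without these 2 libraries, an alternative chosen after seeing the data, are given for the 9 genes and for part of the other calls and counts.

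Ctss, Lyz2 and Mpeg1 were far higher in the pre-leukemic libraries than in the healthy and recovered ones, with no overlap between the groups. Cd68 was also higher in every pre-leukemic library, by a smaller margin. Csf1r, Cd14 and the C1q genes did not share this pattern. Changes are given as the log2 change ± SE fitted by limma on log2(FPKM + 1), a scale that understates the change of low genes, with p-values adjusted by Benjamini-Hochberg over the 13118 genes that reached 1 FPKM in at least 3 libraries. Of the 9 genes 8 were tested and C1qc was not, because it reached 1 FPKM in pre-leukemic 1 and 2 alone. Mpeg1 reached 1 FPKM in pre-leukemic libraries only, so it could enter the test only through the group where it is high.

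Ctss encodes cathepsin S, the endosomal protease that trims the invariant chain from MHC class II molecules in antigen-presenting cells. Its level was 9.56, 1.32, 9.27 and 1.06 FPKM in recovered 1 to 4, between 524 and 850 FPKM with a median of 657 in the pre-leukemic libraries, and 2.19, 0.886 and 1.09 FPKM in healthy 1 to 3. The lowest pre-leukemic library thus lay far above the highest of the other 7 libraries. Within each pre-leukemic library Ctss ranked between 134 and 179 among all gene entries by FPKM. The means were 675 ± 126 FPKM in pre-leukemic samples (SD, n = 6) and 1.26 ± 0.533 FPKM in healthy samples (SD, n = 2), a change of 8.22 ± 0.59 (limma, adjusted p = 4.79e-07). Recovered samples averaged 5.3 ± 4.75 FPKM (SD, n = 4), a change of -7.12 ± 0.47 against the pre-leukemic samples (adjusted p = 6.86e-08). In a bulk library, fewer cells of a type and less RNA per cell cannot be told apart.

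Lyz2 encodes lysozyme M, which cleaves bacterial cell walls and is carried by monocytes, macrophages and neutrophils. It was listed at 4.02, 0, 0.505 and 0 FPKM in recovered 1 to 4, ranged from 94.2 to 683 FPKM with a median of 544 in pre-leukemic libraries, and was 8.84, 0.918 and 6.46 FPKM in healthy 1 to 3. The pre-leukemic libraries spread more widely than for Ctss, with pre-leukemic 3 at 94.2 and pre-leukemic 4 at 272 FPKM below the other 4, which held 542 to 683 FPKM. Against healthy samples the change was 6.55 ± 0.82 (limma, adjusted p = 4.57e-05), and that of recovered against pre-leukemic samples was -7.85 ± 0.65 (adjusted p = 5.32e-07). Lyz1, the neighbouring copy of the gene, lies 5475 bp from Lyz2 on chromosome 10, and their longest transcripts are identical at 1211 of 1262 aligned bases, so reads can be shared between them. Lyz1 was listed at 0 in 11 of 13 libraries and reached 1.54 FPKM in pre-leukemic 2 and 0.211 FPKM in pre-leukemic 6, so the level assigned to the pair lay almost wholly on Lyz2.

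Mpeg1 encodes perforin-2, a pore-forming protein that acts on engulfed bacteria. Recovered libraries held 0.0858, 0.0967, 0 and 0.0777 FPKM, pre-leukemic ones 20.1 to 123 FPKM with a median of 48.4, and healthy ones 0.07, 0 and 0 FPKM. Every value outside the pre-leukemic group was below the level of 3 estimated reads, which for this gene is 0.226 to 0.417 FPKM in recovered and 0.204 to 0.248 FPKM in healthy libraries. Its change was 5.62 ± 0.65 in pre-leukemic against healthy samples (limma, adjusted p = 2.66e-05) and -5.55 ± 0.52 in recovered against pre-leukemic samples (adjusted p = 1.59e-06). The size of the first depends on the constant added before the logarithm and was 8.72 with 0.1 in place of 1.

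Cd68 encodes a heavily glycosylated lysosomal membrane protein widely used as a macrophage marker. Its level was 6, 1.1, 4.34 and 3.26 FPKM in recovered 1 to 4, 17.8 to 70.9 FPKM with a median of 33.5 in pre-leukemic libraries, and 5.17, 14.95 and 6.46 FPKM in healthy 1 to 3. Healthy 2 came close to the lowest pre-leukemic library without reaching it. Between pre-leukemic and healthy samples the change of 1.66 ± 0.65 did not pass (limma, adjusted p = 0.0731). It passed under quantile normalization (1.77, adjusted p = 0.0431), with healthy 1 and 3 as separate samples (1.87, adjusted p = 0.0147), and was 0.09 when each library was scaled to the same sum as in TPM. Between recovered and pre-leukemic samples Cd68 fell by 2.94 ± 0.51 on the log2 scale (adjusted p = 0.000417), or by 1.52 on the TPM scale (adjusted p = 0.0205).

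**Figure D1:**
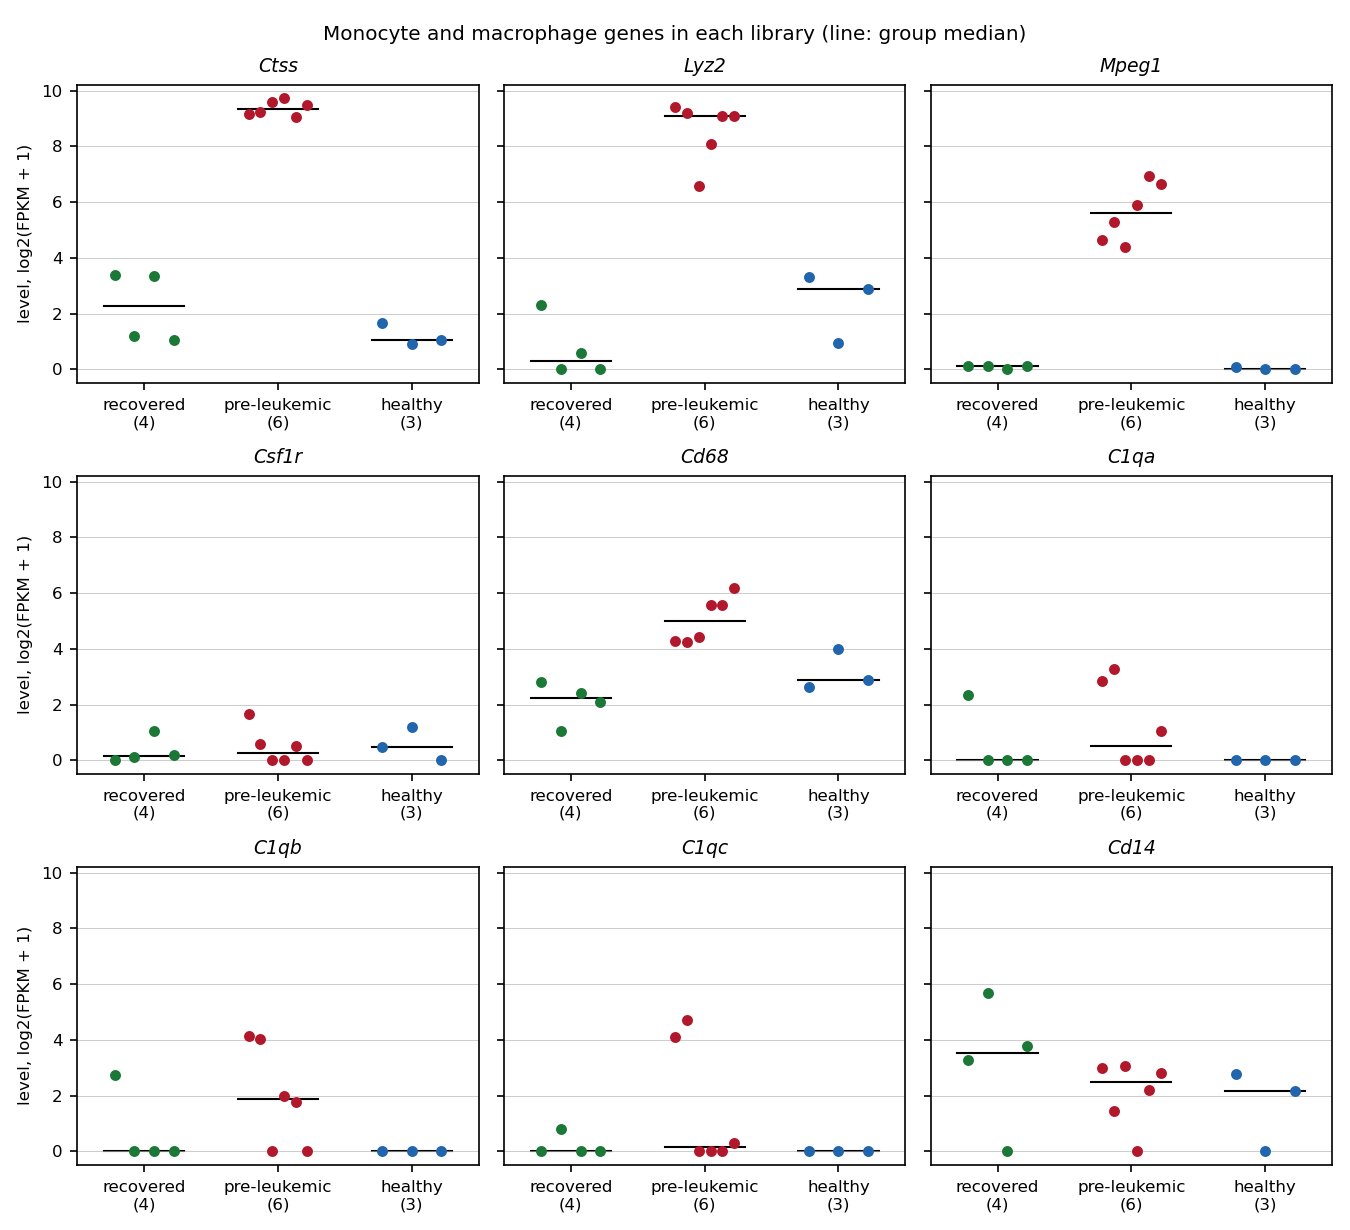
Level of each of the 9 genes in each library as log2(FPKM + 1), 1 panel per gene, with recovered (4), pre-leukemic (6) and healthy (3) libraries from left to right and a line at each group's median. Ctss, Lyz2, Mpeg1 and Cd68 show no overlap of the pre-leukemic points with either other group, whereas Csf1r, Cd14, C1qa, C1qb and C1qc overlap.

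The sequences upstream of the 4 genes that stood higher in every pre-leukemic library are shown because these genes moved together. They are the RefSeq promoter stretches of build GRCm38.p6, written 5′ to 3′ on the strand of the gene and without the bases that the GENCODE annotation places inside the gene. In this build Ctss lies at chr3:95526786-95556403, Lyz2 at chr10:117277331-117282321, Mpeg1 at chr19:12460779-12465283 and Cd68 at chr11:69664213-69666153. The stretches lie at chr3:95526536-95526785 on the plus strand for Ctss, chr10:117282322-117282522 on the minus strand for Lyz2, chr19:12460520-12460769 on the plus strand for Mpeg1 and chr11:69666171-69666420 on the minus strand for Cd68. Capitals mark the letters GGAAGT or GAGGAA, or their reverse complements ACTTCC and TTCCTC, which are found in binding motifs of ETS-family factors such as PU.1, a factor that monocytes and macrophages need. These letters were chosen after the sequences had been read.
Ctss: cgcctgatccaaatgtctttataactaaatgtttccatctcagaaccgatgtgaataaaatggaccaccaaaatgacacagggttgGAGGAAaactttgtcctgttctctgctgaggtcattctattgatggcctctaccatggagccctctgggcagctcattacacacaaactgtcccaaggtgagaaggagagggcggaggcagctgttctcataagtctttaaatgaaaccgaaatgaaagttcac
Lyz2: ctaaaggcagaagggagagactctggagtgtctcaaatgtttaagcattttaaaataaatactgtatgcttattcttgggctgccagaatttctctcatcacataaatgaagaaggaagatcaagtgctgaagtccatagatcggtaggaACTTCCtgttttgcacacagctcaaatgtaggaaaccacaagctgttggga
Mpeg1: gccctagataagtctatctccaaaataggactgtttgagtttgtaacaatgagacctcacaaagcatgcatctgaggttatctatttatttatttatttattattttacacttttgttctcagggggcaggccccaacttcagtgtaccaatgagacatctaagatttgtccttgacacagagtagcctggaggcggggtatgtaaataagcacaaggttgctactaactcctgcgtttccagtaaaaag
Cd68: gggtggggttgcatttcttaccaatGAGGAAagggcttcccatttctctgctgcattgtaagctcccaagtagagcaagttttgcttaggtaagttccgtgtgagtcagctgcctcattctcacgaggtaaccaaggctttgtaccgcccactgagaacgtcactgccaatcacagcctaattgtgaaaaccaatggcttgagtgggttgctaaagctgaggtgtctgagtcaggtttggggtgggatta

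GAGGAA occurred at base 87 of the Ctss stretch and base 26 of the Cd68 stretch, ACTTCC at base 151 of the Lyz2 stretch, and neither in the Mpeg1 stretch. The stretches of C1qb and C1qc held both motifs, which overlap in C1qc. On either strand within 250 bases before the start, GGAAGT was present in 20% and GAGGAA in 23.1% of 27025 genes, and at least 1 of them in 36.8%. Of the 6 genes with a stretch considered here, which leave out Csf1r, C1qa and Cd14, 3 held GGAAGT and 4 held GAGGAA. The stretches of Lyz2 and C1qc were shorter than 250 bases, at 201 and 99. Because the letters were chosen from these sequences, the counts are a description and not a test. The joined letters GAGGAAGT, searched on both strands over 300 bases around the start, were found in Ctss and C1qc and in 3.28% of all genes. Spi1, which encodes PU.1, was measured at 0, 0.213, 1.57 and 21.6 FPKM in recovered 1 to 4, at 6.45 to 17.7 FPKM in pre-leukemic libraries, and at 0.623, 0.189 and 0.694 FPKM in healthy 1 to 3 (pre-leukemic against healthy 2.94 ± 0.93, limma, adjusted p = 0.0302). That call was lost on the TPM scale (adjusted p = 0.165), without pre-leukemic 1 and 2 (adjusted p = 0.0501), without healthy 2 (adjusted p = 0.21) and without pre-leukemic 5 or 6 (adjusted p = 0.0519 for each), and recovered against pre-leukemic samples did not pass (-1.89, adjusted p = 0.0538).

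The surface receptors behaved differently. Csf1r, the receptor for CSF1 and IL-34 at chr18:61100598-61132149, was listed at 0, 0.089, 1.1 and 0.15 FPKM in recovered libraries, at 0 to 2.2 FPKM with a median of 0.216 in pre-leukemic ones, and at 0.407, 1.32 and 0 FPKM in healthy ones. It was at 0 in pre-leukemic 3, 4 and 6, and its 3 groups overlapped throughout. In pre-leukemic libraries Csf1r amounted to between 0 and 2% of the level of Ptprc, the CD45 gene carried by nearly all white blood cells, against 339 to 878% for Ctss and 68.8 to 672% for Lyz2. Its changes were -0.27 ± 0.50 in pre-leukemic against healthy samples (limma, adjusted p = 0.726) and -0.12 ± 0.40 in recovered against pre-leukemic samples (adjusted p = 0.837).

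Cd14, at chr18:36725067-36726798, encodes the co-receptor that hands bacterial endotoxin to the receptor TLR4. It was measured at 8.6, 49.8, 0 and 12.9 FPKM in recovered 1 to 4, at 0 to 7.46 FPKM with a median of 4.79 in pre-leukemic libraries, and at 5.78, 0 and 3.45 FPKM in healthy 1 to 3. Unlike Ctss and Lyz2, its highest values stood in recovered libraries, and the groups overlapped. Recovered 2, with the highest Cd14, had Lyz2 listed at 0 and Ctss at 1.32 FPKM. The change of 1.09 ± 0.95 in recovered against pre-leukemic samples did not pass (limma, adjusted p = 0.379), and without recovered 3, where Cd14 was listed at 0, it was 2.15 (adjusted p = 0.0474).

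The 3 C1q genes encode the chains of the molecule that binds antibody-coated surfaces and dying cells. They lie beside each other on chromosome 4 within 18675 bp, C1qb at 136880129-136886187, C1qc at 136889804-136893065 and C1qa at 136895917-136898803, all on the minus strand. In recovered 1 to 4 C1qa was listed at 4.05, 0, 0 and 0 FPKM, in pre-leukemic 1 to 6 at 6.21, 8.64, 0, 0, 0 and 1.08 FPKM, and at 0 in healthy libraries. C1qb was listed at 5.76, 0, 0 and 0 FPKM in recovered libraries, at 16.5, 15.5, 0, 2.95, 2.43 and 0 FPKM in pre-leukemic ones and at 0 in healthy ones. C1qc was listed at 0, 0.755, 0 and 0 FPKM in recovered libraries, at 16.2, 25.6, 0, 0, 0 and 0.224 FPKM in pre-leukemic ones and at 0 in healthy ones. The 3 genes were therefore all detected together in pre-leukemic 1 and 2, whose immunoglobulin share was the lowest within their group, and no other library held more than 2 of them. A value of 0 in a healthy library leaves room for up to 3 reads, which is 1 to 1.22 FPKM for C1qa, 0.949 to 1.16 FPKM for C1qb and 0.84 to 1.02 FPKM for C1qc, counting error only. Neither tested gene passed: the adjusted p of limma in pre-leukemic against healthy samples was 0.359 for C1qa and 0.196 for C1qb, and in recovered against pre-leukemic samples 0.527 and 0.246. C1qc, fitted without the filter on low values, did not pass either (adjusted p = 0.479 and 0.359).

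**Figure D2:**
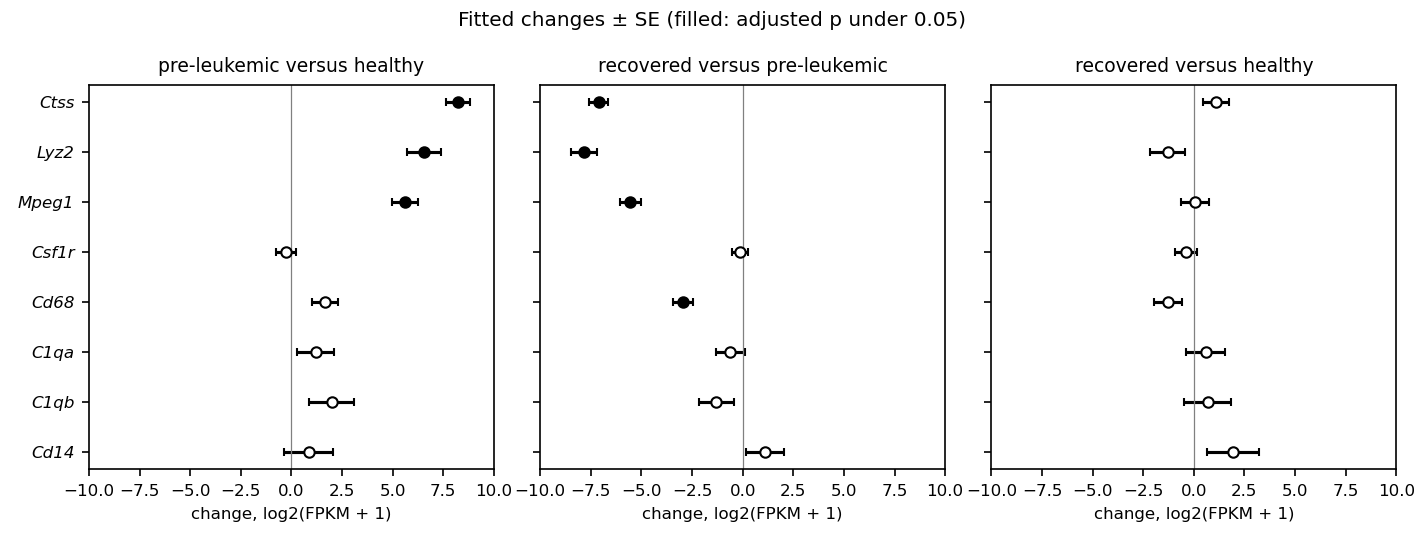
Fitted change on the log2(FPKM + 1) scale with its SE for the 8 tested genes, in pre-leukemic versus healthy, recovered versus pre-leukemic and recovered versus healthy samples; filled points have an adjusted p under 0.05. Filled points stand far to the right for Ctss, Lyz2 and Mpeg1 in the first panel and to the left for these and Cd68 in the second, and the third has none.

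In pre-leukemic against healthy samples 3 of the 8 tested genes were higher and none lower, where 14.2% of all tested genes were higher, 13.1% lower and 27.3% called in either direction. Their groups did not overlap for 4 genes, all higher in pre-leukemic libraries, against 23.7% of all tested genes that were higher and 20.6% that were lower without overlap. In recovered against pre-leukemic samples 4 of 8 were lower (25.1% of all tested genes, and 40% in either direction) and the same 4 had no overlap (16.5%). The median change of the 8 genes was 1.82 in the first comparison and -2.12 in the second, beside medians of 0.20 and -0.41 over all tested genes. Both comparisons share the pre-leukemic libraries, so they are not independent. The genes called include Mpeg1 in both, which could be tested only through the pre-leukemic group. The 9 genes were also chosen with earlier results of these data known, so the counts beside all genes are a description. Without pre-leukemic 1 and 2, 6 of the 9 genes could be tested. Of these 3 were higher in pre-leukemic than in healthy samples, where 11.3% of all genes tested in that setting were higher, and 4 were lower in recovered than in pre-leukemic samples, where 19.6% were lower.

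Between recovered and healthy samples no change passed. None of the 8 passed in limma, whether by adjusted p or at an unadjusted p under 0.05, where 2.51% of all tested genes were called by adjusted p and 1.99% were lower. The change was 1.10 ± 0.63 for Ctss (adjusted p = 0.422), -1.30 ± 0.87 for Lyz2 (adjusted p = 0.508), -1.28 ± 0.69 for Cd68 (adjusted p = 0.386) and 1.94 ± 1.28 for Cd14 (adjusted p = 0.498). A p that misses the threshold does not show that the groups were alike, with n = 4 against n = 2. The closest to a difference in the values themselves was Cd68, at 6, 1.1, 4.34 and 3.26 FPKM in recovered and 5.17, 14.95 and 6.46 FPKM in healthy libraries.

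The genes of neighbouring pathways were read from lists of markers, each counted in the same fit. Over all tested genes, 14.2% were higher and 13.1% lower in pre-leukemic against healthy samples. In recovered against pre-leukemic samples 14.8% were higher and 25.1% lower. The shares of the first comparison were 11.3 and 10.8% without pre-leukemic 1 and 2, 6.1 and 35.4% on the TPM scale, and 16.1 and 12.7% scaled without immunoglobulin genes. A fit without healthy 2 leaves 1 healthy sample, and fewer of all genes passed there. Genes listed at 0 in a group are given by level and adjusted p only, and they enter a list's median with a value set by the added constant. Some genes reached 1 FPKM in pre-leukemic libraries only and so had to be higher there to be tested at all. These were 4 of 10 classical monocyte, 1 of 6 non-classical monocyte, 3 of 13 endotoxin receptor, 3 of 10 Fc receptor and 4 of 11 dendritic cell genes. They also included 6 of 15 neutrophil, 2 of 12 B cell and plasma cell, 4 of 12 T and NK cell, 1 of 12 pan-leukocyte and 1 of 7 endothelial genes. The counts and medians of these lists are therefore a description. Classical monocyte genes moved with Ctss and Lyz2: 9 of 10 were higher in pre-leukemic than in healthy samples, none lower, with a median change of 3.31, and 8 were lower and 1 higher in recovered than in pre-leukemic samples. Ly6c2, which encodes a surface protein used as a marker of these monocytes, stood at 29.5 ± 29.4 FPKM in recovered (SD, n = 4), 3155 ± 617 FPKM in pre-leukemic (SD, n = 6) and 4.7 ± 1.14 FPKM in healthy samples (SD, n = 2). Its change was 9.10 ± 0.93 in pre-leukemic against healthy samples (limma, adjusted p = 8.44e-06). Which cells carried the Ly6c2 transcripts was not tested. Ccr2, the chemokine receptor that lets monocytes leave the marrow, was at 12.5 to 32.8 FPKM in pre-leukemic libraries and listed at 0 in all healthy ones. Ms4a4c was at 5.92 to 12.9 FPKM in pre-leukemic libraries and listed at 0 in recovered and healthy ones. Both were tested only through the pre-leukemic group. The exception was F13a1, the coagulation factor XIII A chain, at 41.1 to 83.8 FPKM in recovered, 0 to 1 FPKM in pre-leukemic and 0.384 to 9.97 FPKM in healthy libraries. It was higher in recovered than in pre-leukemic (5.62 ± 0.53, adjusted p = 1.67e-06) and than in healthy samples (4.03, adjusted p = 0.00819), the second call being lost without healthy 2 (2.58, adjusted p = 0.279).

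Tissue macrophage markers were not among the higher genes. Of 18 genes 7 could be tested. In recovered against pre-leukemic samples 3 of these were higher, and 2 of 6 tested genes without pre-leukemic 1 and 2. In pre-leukemic against healthy samples none was higher and 3 were lower, with a median change of -1.98. The lower ones were Hmox1, the haem-degrading enzyme (-2.93 ± 0.68, limma, adjusted p = 0.00521), the receptor tyrosine kinase Axl (-1.98 ± 0.48, adjusted p = 0.00706) and the folate receptor Folr2 (-2.74 ± 0.73, adjusted p = 0.0117). Without healthy 2 the calls of Hmox1 (adjusted p = 0.138) and Folr2 (adjusted p = 0.159) were lost. Axl is also expressed by stromal cells, with 84.5 to 154 FPKM in healthy libraries. In pre-leukemic libraries 9 of the 18 genes stayed under 1 FPKM throughout, 3 of them listed at 0. Adgre1, which encodes F4/80, reached at most 0.249 FPKM, Cd163 0.396 FPKM and Mrc1 0.876 FPKM there, and Timd4 and Marco were listed at 0 in all 13 libraries. Others reached more: Maf was at 14.6 to 30.4 FPKM in pre-leukemic libraries, against 22 to 27.8 FPKM in healthy ones, and the highest pre-leukemic values were 6.06 FPKM for Ms4a7, 3.88 FPKM for Slc40a1, 3.46 FPKM for Spic, 1.51 FPKM for Msr1 and 1.15 FPKM for Fcgr1. The summed level of the 18 genes was 174 to 279 FPKM in recovered, 49.4 to 72.9 FPKM in pre-leukemic and 138 to 195 FPKM in healthy libraries. Most of this sum was Axl, Maf and, in recovered libraries, Hmox1. Axl alone held 85.1 to 162 FPKM in recovered, 13.5 to 49.9 FPKM in pre-leukemic and 84.5 to 154 FPKM in healthy libraries. The sum is therefore no measure of the other markers, and Adgre1 was listed at 0 in all recovered and healthy libraries. The pre-leukemic libraries thus held high levels of Ctss, Lyz2 and Mpeg1 beside classical monocyte genes, with Csf1r at or under 2.2 FPKM and Adgre1 at or under 0.249 FPKM. Non-classical monocyte genes were split, with 2 of 6 tested genes higher (Itgal and Spn) and 2 lower (Nr4a1 and Ace) in pre-leukemic than in healthy samples, 1 and 0 without healthy 2, and 2 and 1 without pre-leukemic 1 and 2.

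Around the CSF1 receptor, the ligands and the receptors of related cytokines went opposite ways. Of 13 tested genes 5 were higher and 6 lower in pre-leukemic than in healthy samples, and 7 were higher and 5 lower in recovered than in pre-leukemic samples. Csf1 itself stood at 67.8 to 111 FPKM in recovered, 2.31 to 13.5 FPKM in pre-leukemic and 40.8 to 75 FPKM in healthy libraries (pre-leukemic against healthy -2.71 ± 0.55, limma, adjusted p = 0.00197). Il34, the other ligand, was at 1.08 to 20.3 FPKM in recovered, 0 to 1.48 FPKM in pre-leukemic and 8.07 to 11.5 FPKM in healthy libraries (-3.21 ± 0.71, adjusted p = 0.00365). Without healthy 2 neither ligand passed (adjusted p = 0.0609 for Csf1 and 0.061 for Il34). Csf2rb and Csf2rb2, chains of the GM-CSF receptor family, were higher in pre-leukemic samples, Csf2rb2 not without healthy 2 (adjusted p = 0.0517), as was Irf8, a transcription factor of monocyte and dendritic cell precursors (5.91 ± 0.74, adjusted p = 4.58e-05), while Klf4 (-3.33 ± 0.40, adjusted p = 3.57e-05) and Cebpb (-3.13 ± 0.48, adjusted p = 0.000259) were lower. Csf2ra passed as well (1.93 ± 0.61, adjusted p = 0.0307), but not on the TPM scale (adjusted p = 0.553), without pre-leukemic 1 and 2 (adjusted p = 0.078), without healthy 2 (adjusted p = 0.337) or without pre-leukemic 1 or 6 (adjusted p = 0.0507 and 0.0512). Fewer of the 13 genes passed in either direction without healthy 2, where 1 healthy sample remains. In recovered against pre-leukemic samples 6 were higher and 5 lower without pre-leukemic 1 and 2. The counts in pre-leukemic against healthy samples were 3 higher and 5 lower in that setting, and 3 higher and 7 lower on the TPM scale. On that scale 6.1% of all tested genes were higher and 35.4% lower.

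Most tested genes of a list of C1 proteases, C1q receptors and further complement genes were lower in pre-leukemic samples. Of the 11 tested genes of this list, 8 were lower and none higher in pre-leukemic than in healthy samples (median change -3.12). In recovered against pre-leukemic samples 8 were higher and 1 lower. The lower one was Cr1l (-1.86, limma, adjusted p = 0.00103), not called on the TPM scale (adjusted p = 0.512). In pre-leukemic against healthy samples the changes of Cd93 (1.44, adjusted p = 0.239), C1qbp (-0.69, adjusted p = 0.281) and Cr1l (0.62, adjusted p = 0.345) did not pass. The C1 proteases C1s1 (-3.31 ± 0.38, limma, adjusted p = 2.39e-05) and C1ra (-3.96 ± 0.54, adjusted p = 9.34e-05) and the receptor Lrp1 (-4.52 ± 0.61, adjusted p = 8.3e-05) were among the lower ones. C1s1 was at 197 to 268 FPKM in recovered, 7.45 to 19.9 FPKM in pre-leukemic and 147 to 154 FPKM in healthy libraries. The other lower genes were Serping1, Calr, C3, C4b and C2. The call of Calr was lost with libraries scaled without immunoglobulin genes (limma, adjusted p = 0.0597). It was also lost without any 1 of pre-leukemic 3 to 6 (adjusted p = 0.0529 to 0.0597).

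The endotoxin receptor set around Cd14 was mixed, with 4 of 13 tested genes higher and 3 lower in pre-leukemic than in healthy samples. Tlr1 was at 4.86 to 13 FPKM in pre-leukemic libraries and listed at 0 in healthy ones, and was tested only through the pre-leukemic group. Ly86, the partner of Cd180, was higher (3.95 ± 0.82, limma, adjusted p = 0.0025, and adjusted p = 0.0883 without healthy 2), and Lbp, the plasma protein that delivers endotoxin to CD14, was lower (-4.61 ± 0.61, adjusted p = 7.95e-05). The median change of the set was 0.85, and -1.88 on the TPM scale. Fewer genes of the set passed without healthy 2, where 1 healthy sample remains. The counts were 2 higher and 2 lower of 12 tested genes without pre-leukemic 1 and 2, and 2 and 5 of 11 on the TPM scale. On that scale 6.1% of all tested genes were higher and 35.4% lower.

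Other proteases of the endosome did not follow Ctss as a group. Of 14 tested genes 3 were higher (Ctsw, Cst7 and Cd74) and 5 lower (Ctsb, Ctsd, Ctsk, Ctsl and Cst3) in pre-leukemic than in healthy samples. Cd74, the invariant chain that cathepsin S cleaves, stood at 9.31 to 25.8 FPKM in recovered, 717 to 1421 FPKM in pre-leukemic and 1.22 to 2.33 FPKM in healthy libraries (8.38 ± 0.40, limma, adjusted p = 6.63e-09), and it was also higher in recovered than in healthy samples (2.37, adjusted p = 0.00855), a call lost without healthy 2 (adjusted p = 0.17). Cst7, the cystatin F of white blood cells, was higher (4.72 ± 0.49, adjusted p = 1.03e-05) and Cst3, the secreted inhibitor of cathepsins, was lower (-3.57 ± 0.15, adjusted p = 2.24e-09). Of 11 lysosomal membrane proteins and acid hydrolases, the class to which the Cd68 product belongs by location, none was higher and 5 were lower, Cd63 (-3.58 ± 0.56, adjusted p = 0.000285), Hexa (-1.93 ± 0.34, adjusted p = 0.000845) and Lamp1 (-1.32 ± 0.34, adjusted p = 0.00922) with the smallest p. Lamp1 did not pass without healthy 2 (adjusted p = 0.136). Fewer endosomal and lysosomal genes passed without healthy 2, where 1 healthy sample remains. On the TPM scale 2 endosomal genes were higher and 9 lower, and 9 lysosomal genes were lower. Over all tested genes 6.1% were higher and 35.4% lower on that scale. Without pre-leukemic 1 and 2, and with libraries scaled without immunoglobulin genes, 4 endosomal and 3 lysosomal genes were lower.

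Markers of other white blood cells rose in the same libraries. All 12 pan-leukocyte genes were higher in pre-leukemic than in healthy samples and lower in recovered than in pre-leukemic samples, with a median change of 4.74 in the first comparison. On the TPM scale 9 were higher in the first comparison and 11 lower in the second. Without pre-leukemic 1 and 2 these counts were 12 and 11. Ptprc was at 0.483, 16.4, 1.21 and 0.365 FPKM in recovered libraries, 80.7 to 155 FPKM in pre-leukemic ones and 0.591, 0.0797 and 1.25 FPKM in healthy ones (pre-leukemic against healthy 6.46 ± 0.78, limma, adjusted p = 3.44e-05). Neutrophil genes were 11 of 15 higher, and Lcn2 and Retnlg were listed at 0 in healthy libraries and stood at 218 to 1015 and 37.2 to 482 FPKM in pre-leukemic ones. Lcn2 was also higher in recovered than in healthy samples (limma, adjusted p = 0.00215), a call lost without healthy 2, where 1 healthy sample remains. Dendritic cell genes were 8 of 11 higher, Fc receptors and their adaptors 6 of 10, B cell and plasma cell genes 10 of 12 with Pax5 lower, and T and NK cell genes 10 of 12. Among 5 osteoclast genes only Mmp9 passed (2.83, adjusted p = 0.0402), a share near that over all genes, and it was lost on the TPM scale, without pre-leukemic 1 and 2, without healthy 2 and without any of pre-leukemic 1 to 5 (adjusted p = 0.0586 to 0.316). No endothelial gene of 7 passed. Without pre-leukemic 1 and 2, 10 of 14 tested neutrophil and 9 of 12 B cell and plasma cell genes were higher. On the TPM scale 9 of 13 neutrophil, 7 of 12 B cell and plasma cell and 8 of 12 T and NK cell genes were higher. Dendritic cell genes were 6 of 8 and Fc receptor genes 6 of 9 higher on that scale, where 6.1% of all tested genes were higher. There, 2 B cell and plasma cell genes and 1 of 3 tested endothelial genes were lower. Without healthy 2 the dendritic and Fc receptor counts were 3 each. The stromal list moved the other way, with 9 of 13 genes lower and Ly6a higher (not on the TPM scale, adjusted p = 0.576), and Cxcl12, the chemokine of marrow stroma, at 497 to 910 FPKM in recovered, 6.75 to 124 FPKM in pre-leukemic and 369 to 508 FPKM in healthy libraries. Erythroid genes were 3 of 5 lower, and 4 of 5 higher in recovered than in healthy samples. The part that each of these cell types had in the levels of the 9 genes was not tested. Under the 3 other scalings of the libraries no gene of these lists was called in the opposite direction.

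**Figure D3:**
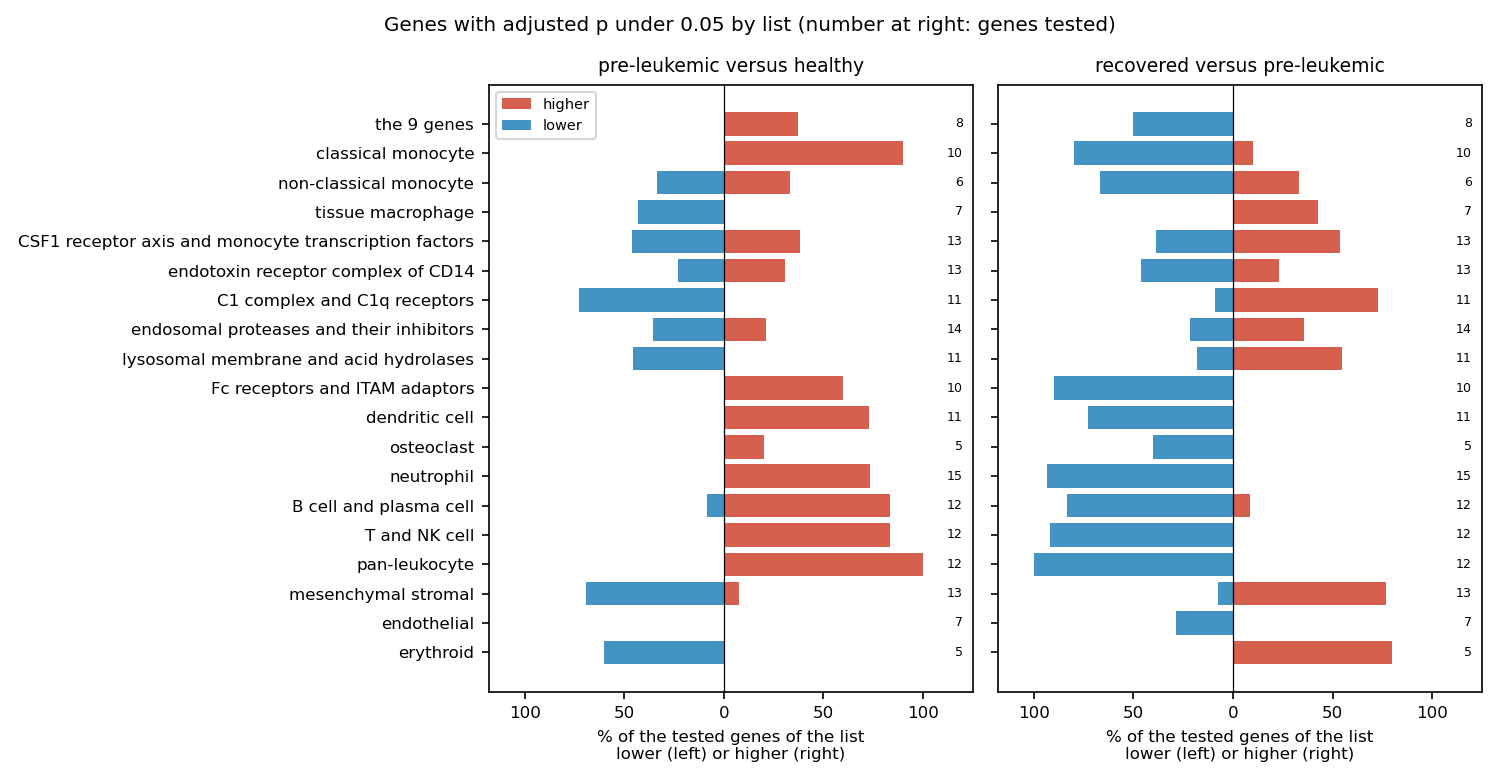
Share of the tested genes of each list, in percent, with an adjusted p under 0.05 and higher (bars to the right) or lower (bars to the left), in pre-leukemic versus healthy and in recovered versus pre-leukemic samples, with the number of genes tested at the right edge. The pan-leukocyte list reaches 12 of 12 and the classical monocyte list 9 of 10 in the first panel, where the tissue macrophage list has bars to the left only.

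The 9 genes also differed among pre-leukemic libraries. Mpeg1 was highest in pre-leukemic 5, 6 and 4 with 123, 99.2 and 58.5 FPKM, and lowest in pre-leukemic 3 with 20.1 FPKM. The same 3 libraries had the highest Cd68, at 46.8, 70.9 and 46.7 FPKM, and the highest Siglech, a surface protein of plasmacytoid dendritic cells, at 473, 485 and 226 FPKM against 60.8 to 109 FPKM in the other 3. Lyz2 had another order, lowest in pre-leukemic 3 and 4, where the monocyte and neutrophil gene Chil3 was also lowest, at 19.9 and 68.8 FPKM against 357 to 473 FPKM in the other 4, and so was the neutrophil granule gene Ngp, at 291 and 472 FPKM against 1373 to 2062 FPKM. The C1q genes stood in pre-leukemic 1 and 2, and the Fc receptor gene Fcgr4 was likewise at 6.6 and 6.03 FPKM there and listed at 0 in the other 11 libraries. Siglech, Chil3, Ngp and Fcgr4 were chosen for these sentences after their values had been seen, and with 6 libraries these orders are a description. Ctss varied little between them, from 524 to 850 FPKM.

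In the number of genes detected, pre-leukemic 1 held all 9 at 1 FPKM or more and pre-leukemic 2 held 8, against 5 or 6 in pre-leukemic 3 to 6. Recovered 1 held 6 and recovered 2, 3 and 4 held 3 each, and healthy 1 to 3 held 4, 2 and 4. The summed level of the 9 genes was 15.2 to 53.2 FPKM in recovered, 923 to 1428 FPKM in pre-leukemic and 17.5 to 22.5 FPKM in healthy libraries.

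**Figure D4:**
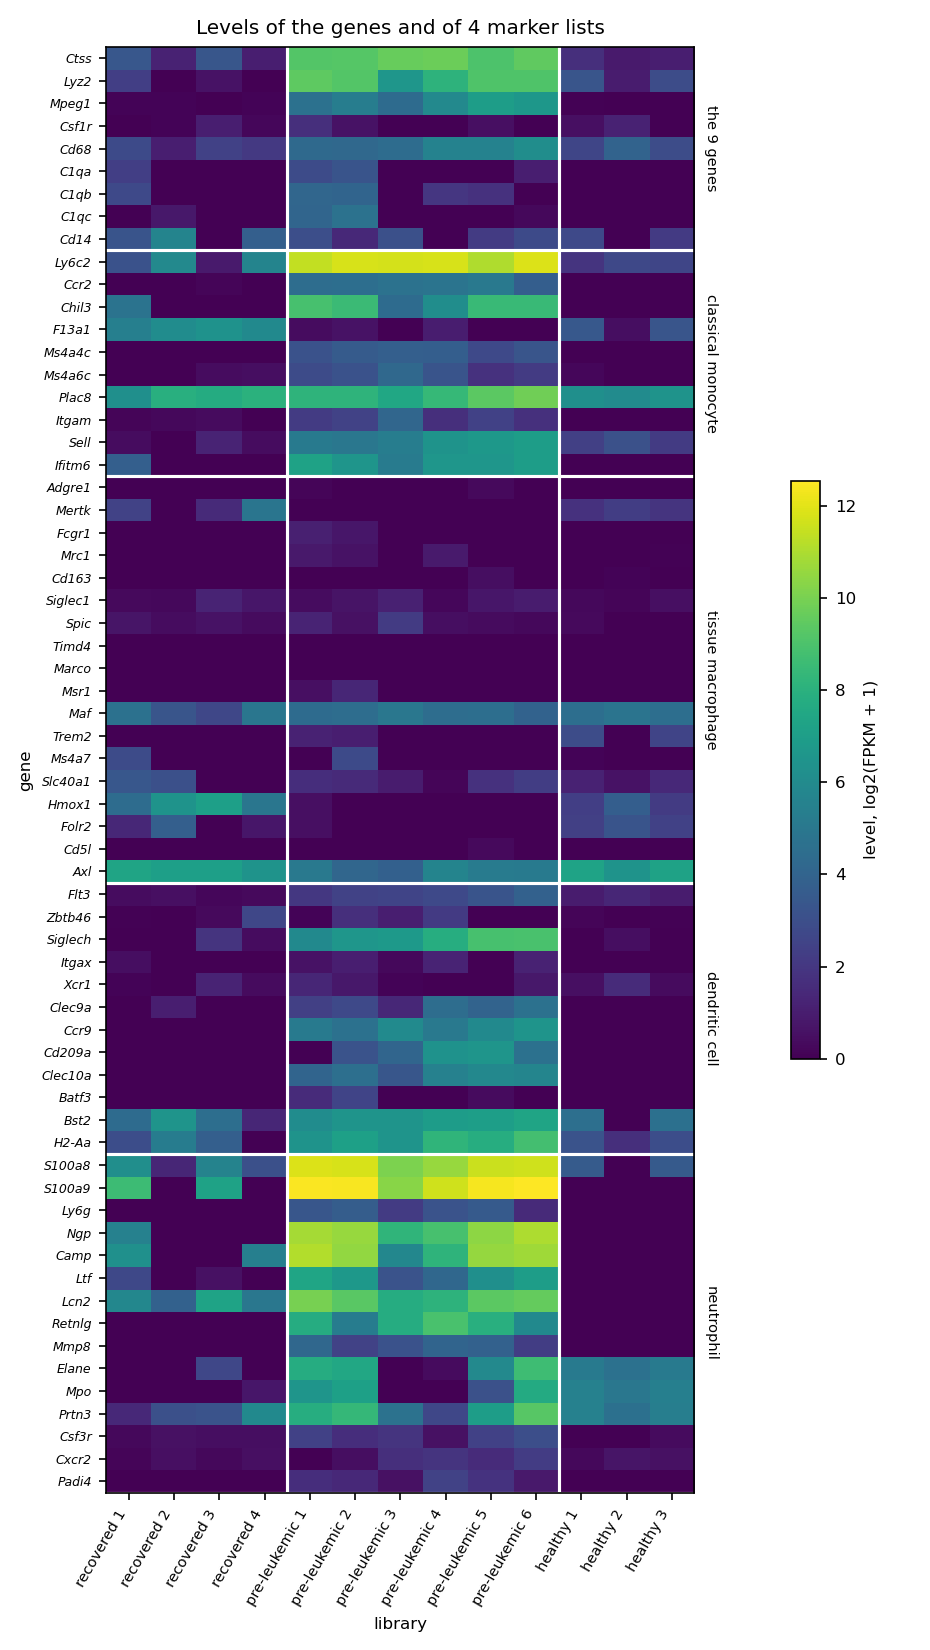
Level as log2(FPKM + 1) (colour) of the 9 genes and of 4 marker lists (rows: classical monocyte, tissue macrophage, dendritic cell and neutrophil) in each of the 13 libraries (columns: recovered 1 to 4, pre-leukemic 1 to 6, healthy 1 to 3). Most classical monocyte, dendritic cell and neutrophil rows are bright in the pre-leukemic columns, and most tissue macrophage rows are dark there.

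For each tested gene the 3 genes with the most similar profile were found as those with the smallest root mean square difference of centred log2(FPKM + 1) over the 12 samples of the fit. The nearest to Ctss were Itgal, an integrin chain of white blood cells, at a distance of 0.665, Ms4a6b at 0.694 and the lymphocyte phosphatase gene Ptpn22 at 0.733. Lyz2 was nearest to Pglyrp1, a peptidoglycan-binding protein of neutrophil granules, at 0.759, followed by Tnfrsf4 and Glipr1. Mpeg1 was nearest to Clec10a, a lectin of dendritic cells and macrophages, at 0.408, Cd300c at 0.452 and Rps6ka1 at 0.495. Cd68 was nearest to Cyb561a3 at 0.36 and to Unc93b1, a chaperone of endosomal Toll-like receptors, at 0.387. Among the low genes, Csf1r was nearest to Xcr1 at 0.317 and then to Grcc10 and Mbd2, which stood at 178 to 500 and 41.4 to 165 FPKM over all libraries. C1qa, C1qb and Cd14 were nearest to Nap1l3, Rps19-ps3 and Stk39, at 0.717, 0.714 and 0.723. Itgal, the gene closest to Ctss, was at 0.218 to 3.49 FPKM in recovered, 124 to 193 FPKM in pre-leukemic and 0.0959 to 0.883 FPKM in healthy libraries.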

How the data were processed

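Polyadenylated RNA of the sorted cells was sequenced from Nextera XT libraries, per the labels' protocols. The deposited table holds FPKM values that the authors made with bcl2fastq, TopHat, Cufflinks 2.2.1 and Cuffnorm on build mm10, per the submitters' processing notes; the sources used here give neither the annotation nor the library-size scaling, and different scalings were therefore compared. Levels were used as log2(FPKM + 1), with genes kept at 1 FPKM or more in at least 3 libraries (13118 genes), and fitted in R 4.3.3 by limma 3.58.1, with a mean-variance trend in its moderated test, over 12 samples with 9 residual degrees of freedom, with Benjamini-Hochberg adjustment and a threshold of 0.05. The fit was also run on independent normal values simulated per gene, a simpler setting than these data. Depth was estimated from FPKM steps over 5240 genes with a single transcript; limits drawn from it cover counting error only. Symbols were matched to GENCODE M21 (32082 of 33433 entries), and promoters to RefSeq.

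The members and lists were chosen with earlier results of these data known. Named genes are the members, Lyz1, up to 3 genes with the smallest p in pre-leukemic against healthy samples from each list, exceptions of 5 or fewer, Ptprc, Cxcl12 and the 3 nearest genes; other genes named in the text were chosen after their values had been seen. Alternatives were other scalings, pseudocounts, filters, sample sets and weights, leaving out each replicate, and a replicate block.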

Additional observations from a re-analysis of the deposited data

Results flagged for a closer look

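In 9 of 23 sets of values examined, 1 library stood apart from the others of its group by Dixon's test, which flags about 1 in 20 by chance where values vary continuously. Where all other libraries of the group are listed at 0, as for C1qa, C1qb and C1qc in recovered libraries, any value above 0 is flagged and that rate does not apply. Among recovered libraries these were Lyz2 in recovered 1 (4.02 FPKM), Csf1r in recovered 3 (1.1 FPKM), C1qa in recovered 1 (4.05 FPKM), C1qb in recovered 1 (5.76 FPKM), C1qc in recovered 2 (0.755 FPKM) and Ptprc in recovered 2 (16.4 FPKM). Among pre-leukemic libraries they were Csf1r in pre-leukemic 1 (2.2 FPKM), Lyz1 in pre-leukemic 2 (1.54 FPKM) and Cxcl12 in pre-leukemic 1 (124 FPKM).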

How the results depend on the processing

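The number of the 9 genes called was recomputed 75 times over the 3 comparisons and stayed within 1.5 times its value: 3 or 4 in pre-leukemic against healthy, 4 or 5 in recovered against pre-leukemic and 0 in recovered against healthy samples. Direction turned in 6 values, none of them past the threshold in that setting: Csf1r under quantile normalization (0.57 in recovered against pre-leukemic, 0.06 in recovered against healthy samples), Cd14 in pre-leukemic against healthy samples on the TPM scale (-0.10) and without healthy 2 (-0.40, in a range up to 1.26 when other replicates were left out), and, with a replicate block over 13 separate libraries, Csf1r in pre-leukemic against healthy (0.12) and Mpeg1 in recovered against healthy samples (-0.08); the cause was not tested. Deviations of same-numbered samples correlated at -0.0194 to 0.0337. These values give no sign that the replicate numbers pair the samples, but with groups this small they cannot exclude it. With the block C1qb passed in pre-leukemic against healthy samples (2.75, limma, adjusted p = 0.0297), and the counts over all genes were 3700, 4527 and 303. Over all genes, 3583 were called in pre-leukemic against healthy samples and 1580 without healthy 2. In recovered against healthy samples 329 were called, 211 with quantile normalization, 544 on the TPM scale, 122 with a mean of at least 5 FPKM, 103 with the compared groups only, 163 with sample weights, 767 with 13 separate libraries, 149 without pre-leukemic 1 and 2, and 6 to 679 when a replicate was left out (6 without healthy 2, 679 without recovered 1). The median of all genes moved by -1.28 on the TPM scale in pre-leukemic against healthy samples, where 14.7% of calls were higher in place of 51.9%; in recovered against pre-leukemic samples 37.1% of calls were higher, 50.4% with quantile normalization and 77.6% on the TPM scale. In recovered against healthy samples 20.7% were higher, 11.2% on the TPM scale, 13.3% scaled without immunoglobulin genes, 66.7% without healthy 2 (4 of 6), 31.3% with quantile normalization, 37.7% with a mean of at least 5 FPKM and 8.74% with the compared groups only. Depth limits the values near 0, and n = 2 limits every comparison with healthy samples.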
